A study of Capra hircus with 90 samples.

Results

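DACT3, APCDD1, RHOU and CCDC85C are 4 goat genes with a role in, or a link to, Wnt signalling that were chosen by measured values: the authors' deposited table of 24 h of CO2 against 24 h of room air in the ventral respiratory column lists all 4 as lower. That table holds 115 entries, 95 of them lower after CO2. DACT3 is listed in it with a log2 change of -1.52 and an FDR of 0.00457, CCDC85C with -1.37 and 0.00617, RHOU with -1.07 and 0.0154, and APCDD1 with -0.99 and 0.0188, while no entry has an absolute log2 change under 0.504 or an FDR over 0.049. The 4 genes are 4 of 238 with a gene symbol that could be tied to a row of the count table, which has 25144 genes. Their rows are ENSCHIG00000021818 for DACT3, ENSCHIG00000000292 for APCDD1, ENSCHIG00000001675 for RHOU and ENSCHIG00000025658 for CCDC85C. Because their fall after 24 h in the ventral respiratory column is what chose them, it is described here without a test, as is every other comparison that uses a library of those 2 groups.

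The goats were adult outbred females of at least 2 years, in 5 groups of 6 animals that breathed 6% CO2 for 3 h, 6% CO2 for 24 h, room air for 24 h, 6% CO2 for 7 d or room air for 7 d. Each brainstem was punched at 3 sites, which gives 15 groups of 6 libraries. The nucleus of the solitary tract (NTS) lay 0 to 2 mm rostral of the obex. The ventral respiratory column (VRC) lay at 2 to 4 mm, and at 8 to 10 mm the retrotrapezoid nucleus (RTN). No goats breathed room air for 3 h, and the design names 24 h of room air as the control for both short exposures. Both 7 d groups were extracted and sequenced in a second batch, so a difference between 24 h and 7 d groups cannot be told apart from one between batches.

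Wnt proteins bind Frizzled and LRP receptors at the cell surface, and the signal passes through Dishevelled either to beta-catenin, which turns on target genes with TCF and LEF factors, or to small GTPases that shape the cytoskeleton. In the brain the pathway is known for patterning the neural tube, for the growth and barrier traits of brain vessels and for holding back the maturation of oligodendrocytes, the myelin-forming cells. DACT3 belongs to the Dapper family of proteins that bind Dishevelled and restrain Wnt signalling inside the cell. APCDD1 is a membrane glycoprotein that inhibits the pathway at the surface and is itself a target gene of beta-catenin. RHOU, also called Wrch-1, is an atypical small GTPase first described as a gene induced by Wnt-1. CCDC85C is a coiled-coil protein of apical cell junctions, known from a mouse mutant with hydrocephalus, and it is not an established core component of the pathway, so the shared label is loose for it.

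Library totals ran from 5.46 M to 36.8 M counts, with group means between 18.9 M and 28.5 M. The lowest total was that of number 4 of the VRC after 24 h of CO2. Over the 90 libraries the raw counts were 67 to 1604 for DACT3, 212 to 2185 for APCDD1, 82 to 1076 for RHOU and 23 to 391 for CCDC85C, so CCDC85C carries the most counting error. Levels are given as CPM, counts scaled to a common library size with TMM factors, which are not divided by gene length, and so each gene is compared only with itself. Among the 18 NTS libraries of the first batch, 5 scored high on a first principal component that held 34.8% of the variance. They were 2 in room air (5, 6), 2 after 3 h (5, 6) and 1 after 24 h of CO2 (5). Genes that mark each brainstem site were not among the linked symbols and were not checked here. In bulk tissue, fewer cells of a type and less RNA per cell cannot be told apart.

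In the VRC of the first batch, room air for 24 h was the group that stood high for all 4 genes, and both CO2 groups lay below it. DACT3 had 11.9 to 22.2 CPM (median 16.9) after 24 h of CO2, against 31.3 to 61.7 CPM (median 47.5) in room air. All 6 CO2 libraries were below the lowest room-air library. The means were 16.4 ± 3.9 CPM after 24 h of CO2 and 47.7 ± 11.5 CPM in room air (SD, n = 6 each), and the fitted log2 change was -1.49 ± 0.28 (SE). After 3 h of CO2 the mean was 25.0 ± 13.6 CPM, against the same room-air libraries, with a log2 change of -0.90 ± 0.26. At 3 h the libraries split, since numbers 2 and 3 had 37.3 and 46.8 CPM and the other 4 had 13.6 to 19.4 CPM.

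For the membrane inhibitor APCDD1 the picture in the VRC was the same in kind. It had 27.7 to 50.8 CPM (median 35.3) after 24 h of CO2, against 63.5 to 114 CPM (median 68.9) in room air. The groups did not overlap, and their means were 37.8 ± 9.2 CPM after CO2 and 75.8 ± 19.3 CPM in room air (SD, n = 6 each), a log2 change of -0.99 ± 0.23. One room-air library, number 3, had 114 CPM and the next highest 73.6 CPM. After 3 h of CO2 the mean was 40.7 ± 17.6 CPM, a log2 change of -0.88 ± 0.22 against the same room air, and number 3 again stood alone with 72.9 CPM.

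RHOU, the Wnt-induced GTPase, had 11.1 to 19.6 CPM (median 16.4) in the VRC after 24 h of CO2, against 25.9 to 40.0 CPM (median 36.1) in room air. Here too no CO2 library reached the lowest room-air library. Its means were 16.2 ± 3.2 CPM after 24 h of CO2 and 34.2 ± 5.2 CPM in room air (SD, n = 6 each), a log2 change of -1.06 ± 0.25. After 3 h the log2 change was -0.88 ± 0.24 and the mean 18.4 ± 10.8 CPM, with number 3 at 38.4 CPM inside the room-air range and the other 5 at 10.4 to 22.4 CPM below it.

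CCDC85C, the junction protein, had 3.49 to 5.09 CPM (median 4.13) in the VRC after 24 h of CO2, against 7.16 to 15.5 CPM (median 11.2) in room air. The CO2 libraries lay close together and all below room air, which was spread over a wider range. The means were 4.17 ± 0.57 CPM after CO2 and 10.8 ± 3.1 CPM in room air (SD, n = 6 each), a log2 change of -1.38 ± 0.25. After 3 h the mean was 4.73 ± 2.54 CPM, a log2 change of -1.17 ± 0.24. Number 3 of the 3 h libraries had 9.82 CPM and the next highest 4.62 CPM.

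All 4 genes thus had non-overlapping groups after 24 h of CO2 in the VRC, where all 6 CO2 libraries lay below all 6 room-air libraries for 1.47% of the 16630 genes kept over all libraries. In edgeR's quasi-likelihood test 0.817% of the 15424 genes of that comparison (126 genes) passed an adjusted p of 0.05. Without any 1 of 9 of the 12 libraries (room air 1 to 4 and CO2 1 to 5), that number fell to between 18 and 81. Both percentages are background only, since these values chose the 4 genes. The median log2 change of the 4 was -1.22 at 24 h and -0.89 at 3 h, against 0.00 for all genes at either time. Without number 3 of the 3 h libraries, which was high for all 4, the 3 h log2 changes were -1.18 for DACT3, -1.13 for APCDD1, -1.23 for RHOU and -1.54 for CCDC85C. Between 24 h and 3 h of CO2 in the VRC the log2 differences were -0.59 ± 0.28 for DACT3, -0.11 ± 0.23 for APCDD1, -0.19 ± 0.26 for RHOU and -0.21 ± 0.29 for CCDC85C. Without number 3 of the 3 h group they were -0.31, 0.14, 0.17 and 0.16 in the same order of genes, so the sign of 3 of the 4 rests on that library.

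**Figure D1:**
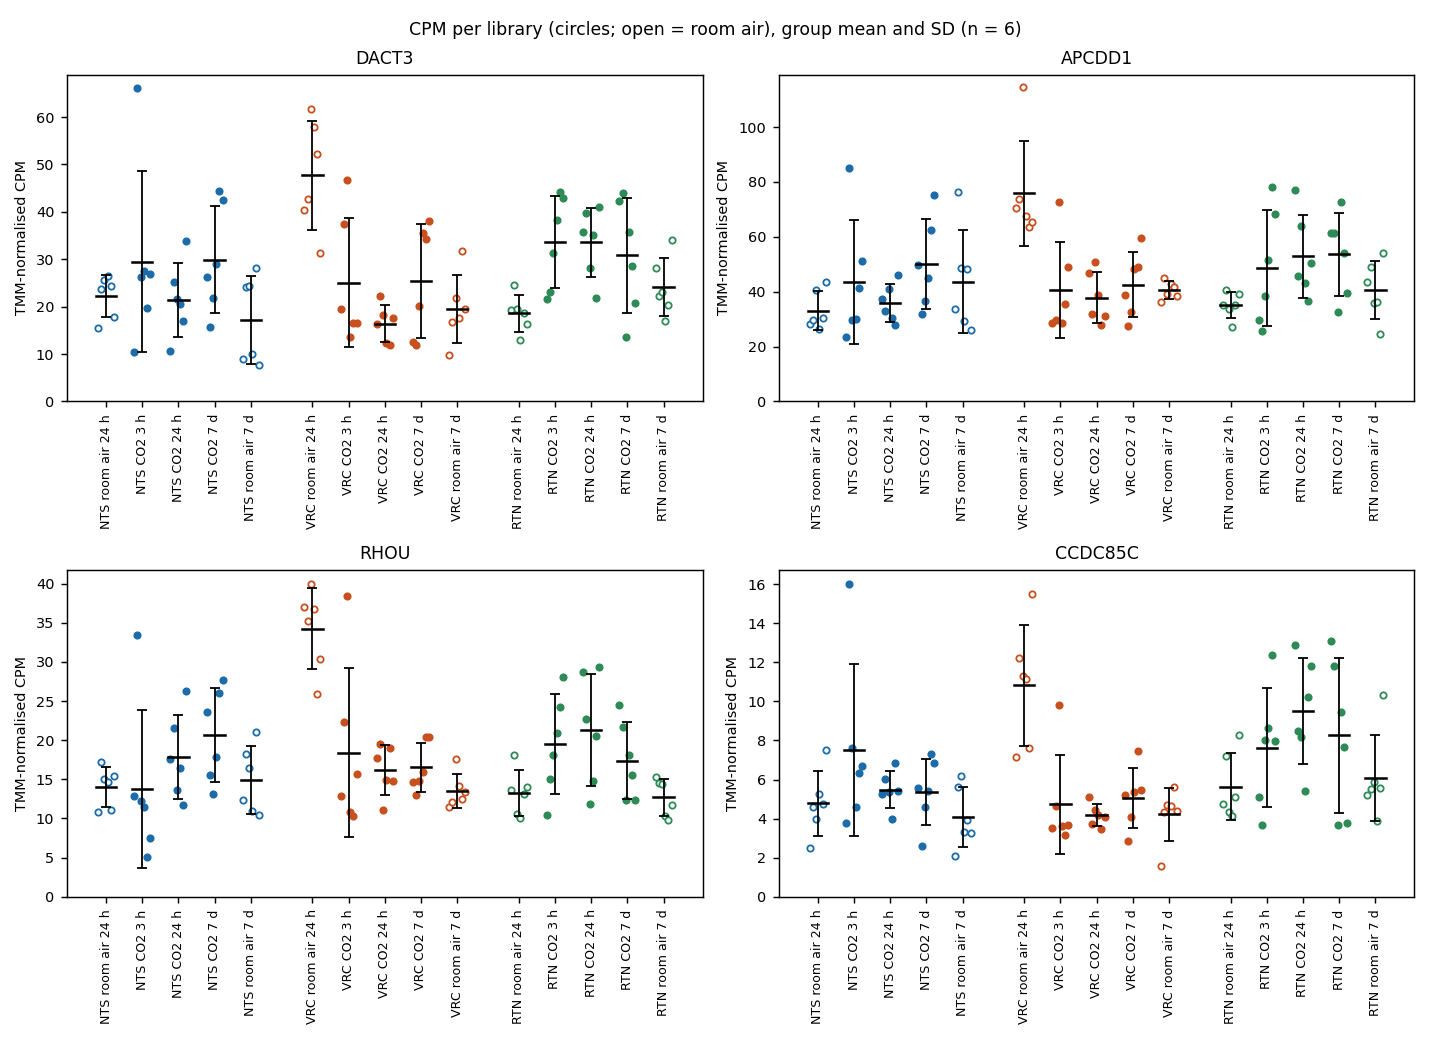
CPM of DACT3, APCDD1, RHOU and CCDC85C in each of 90 libraries (circles, open for room air), by site and exposure, with the mean and SD of each group (n = 6). VRC room air of 24 h has the highest mean in each panel, 47.7 CPM for DACT3, and single high libraries are seen after 3 h of CO2 in the NTS and VRC.

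After 7 d the VRC showed no such gap, and room air itself was low. DACT3 averaged 25.4 ± 12.04 CPM after 7 d of CO2 and 19.5 ± 7.2 CPM in 7 d of room air (SD, n = 6 each). The CO2 libraries fell into a lower and a higher part, 3 at 11.8 to 20.03 CPM and 3 at 34.3 to 38.2 CPM, around a room-air range of 9.77 to 31.7 CPM. APCDD1 averaged 42.6 ± 11.9 CPM after CO2 and 40.6 ± 3.2 CPM in room air, with room air at 36.3 to 44.9 CPM lying inside the CO2 range of 27.4 to 59.6 CPM. RHOU averaged 16.5 ± 3.1 CPM after CO2 and 13.5 ± 2.2 CPM in room air, where 2 CO2 libraries, at 20.4 CPM each, lay above all room air. CCDC85C averaged 5.07 ± 1.53 CPM after CO2 and 4.21 ± 1.37 CPM in room air, and the ranges of 2.86 to 7.45 and 1.57 to 5.61 CPM overlapped.

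The log2 changes after 7 d in the VRC were 0.38 ± 0.32 for DACT3, 0.07 ± 0.16 for APCDD1, 0.29 ± 0.14 for RHOU and 0.26 ± 0.26 for CCDC85C. None of the 4 passed edgeR's quasi-likelihood test, with adjusted p-values of 0.747 to 0.933, and 0% of 15179 genes did, although 996 genes had an unadjusted p under 0.05 and DESeq2 called 2 genes. As a description, the 7 d change exceeded the 24 h change in the VRC by 1.87 ± 0.44 for DACT3, 1.63 ± 0.37 for CCDC85C, 1.35 ± 0.31 for RHOU and 1.06 ± 0.29 for APCDD1 on the log2 scale. The room-air means of the VRC, set side by side across the 2 batches, were 19.5 CPM at 7 d and 47.7 CPM at 24 h for DACT3 and 40.6 CPM at 7 d and 75.8 CPM at 24 h for APCDD1. They were 13.5 CPM at 7 d and 34.2 CPM at 24 h for RHOU, and 4.21 CPM at 7 d and 10.8 CPM at 24 h for CCDC85C.

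In the RTN the 4 genes had higher means after CO2 than in room air at all 3 times, the opposite sign to the VRC of the first batch. DACT3 had 21.6 to 44.1 CPM (median 34.9) after 3 h of CO2 and 21.7 to 40.9 CPM (median 35.5) after 24 h, against 13.0 to 24.6 CPM (median 19.0) in 24 h of room air. Of the 6 CO2 libraries, 4 at 3 h and 5 at 24 h were above every room-air library. The mean was 33.6 CPM after both exposures, with an SD of 9.8 at 3 h and 7.3 at 24 h, against 18.6 ± 3.8 CPM in room air (n = 6 each). The log2 change was 0.85 ± 0.19 at both times.

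DACT3 ranked 9th of 15479 genes by p in the RTN at 3 h and 8th at 24 h, and did not pass the threshold at either. By edgeR's quasi-likelihood test its unadjusted p was 0.000207 at 3 h and 0.000243 at 24 h, and its adjusted p 0.321 and 0.411. With the Wald test of DESeq2 the adjusted p was 0.019 at 3 h and 0.0314 at 24 h, past the threshold. Calls were rare by either tool in the RTN: edgeR called 0.0129% of genes at 3 h (2 genes) and 0% at 24 h, where 1001 genes had an unadjusted p under 0.05, and DESeq2 called 0.11% at 3 h (17 genes) and 0.0581% at 24 h (9 genes). Both comparisons use the same room-air libraries, so the 2 times are not independent of each other.

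APCDD1 in the RTN had 25.8 to 78.2 CPM (median 45.002) after 3 h and 36.7 to 77.0 CPM (median 48.1) after 24 h of CO2, against 27.1 to 40.6 CPM (median 35.2) in room air. At 24 h, 5 of 6 CO2 libraries exceeded all of room air. Its means were 48.6 ± 21.2 CPM at 3 h, 52.8 ± 14.97 CPM at 24 h and 35.1 ± 4.8 CPM in room air, so that the log2 change was 0.46 ± 0.24 at 3 h and 0.59 ± 0.24 at 24 h (edgeR adjusted p = 0.75 at 3 h, 0.693 at 24 h). RHOU had 10.5 to 28.1 CPM (median 19.5) after 3 h and 11.8 to 29.3 CPM (median 21.6) after 24 h, against 10.0 to 18.1 CPM (median 13.4) in room air. For the GTPase, 3 libraries at 3 h and 4 at 24 h were above room air, the means were 19.5 ± 6.4, 21.3 ± 7.1 and 13.3 ± 2.9 CPM for 3 h, 24 h and room air, and the log2 change was 0.56 ± 0.23 at 3 h and 0.68 ± 0.24 at 24 h (edgeR adjusted p = 0.667 at 3 h, 0.638 at 24 h). CCDC85C had 3.69 to 12.4 CPM (median 8.01) after 3 h and 5.41 to 12.9 CPM (median 9.36) after 24 h, against 4.14 to 8.28 CPM (median 4.93) in room air. This gave means of 7.64 ± 3.02, 9.49 ± 2.71 and 5.64 ± 1.71 CPM for 3 h, 24 h and room air, and a log2 change of 0.47 ± 0.26 at 3 h and 0.79 ± 0.26 at 24 h (edgeR adjusted p = 0.766 at 3 h, 0.592 at 24 h).

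None of the 4 genes thus passed the edgeR test in the RTN, while the median of their 4 log2 changes was 0.51 at 3 h and 0.74 at 24 h, against 0.00 for all genes at both times. Between 24 h and 3 h of CO2 in the RTN the differences were -0.003 ± 0.18 for DACT3, 0.13 ± 0.23 for APCDD1, 0.13 ± 0.23 for RHOU and 0.32 ± 0.24 for CCDC85C, with edgeR adjusted p-values of 0.692 to 0.997 and 0% of genes called. There 1390 genes had an unadjusted p under 0.05 and DESeq2 called 25.

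After 7 d in the RTN the means were again higher with CO2, with wide overlap. DACT3 averaged 30.8 ± 12.1 CPM after CO2 and 24.2 ± 6.1 CPM in room air (SD, n = 6 each), and APCDD1 53.6 ± 15.03 CPM after CO2 and 40.6 ± 10.5 CPM in room air. RHOU averaged 17.4 ± 5.0 CPM after CO2 and 12.7 ± 2.4 CPM in room air, and CCDC85C 8.26 ± 3.98 CPM after CO2 and 6.07 ± 2.21 CPM in room air. For APCDD1 and RHOU, 4 of 6 CO2 libraries were above all room-air libraries. The log2 changes were 0.35 ± 0.26, 0.40 ± 0.21, 0.46 ± 0.18 and 0.44 ± 0.33 for DACT3, APCDD1, RHOU and CCDC85C, each with an edgeR adjusted p of 0.999. Neither here nor in the contrast of the 7 d change with the 24 h change, where the 4 values were -0.50 to -0.19 and the adjusted p 0.999, was any gene called (0% in both, with 499 and 514 genes at an unadjusted p under 0.05, and 2 and 0 genes called by DESeq2).

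**Figure D2:**
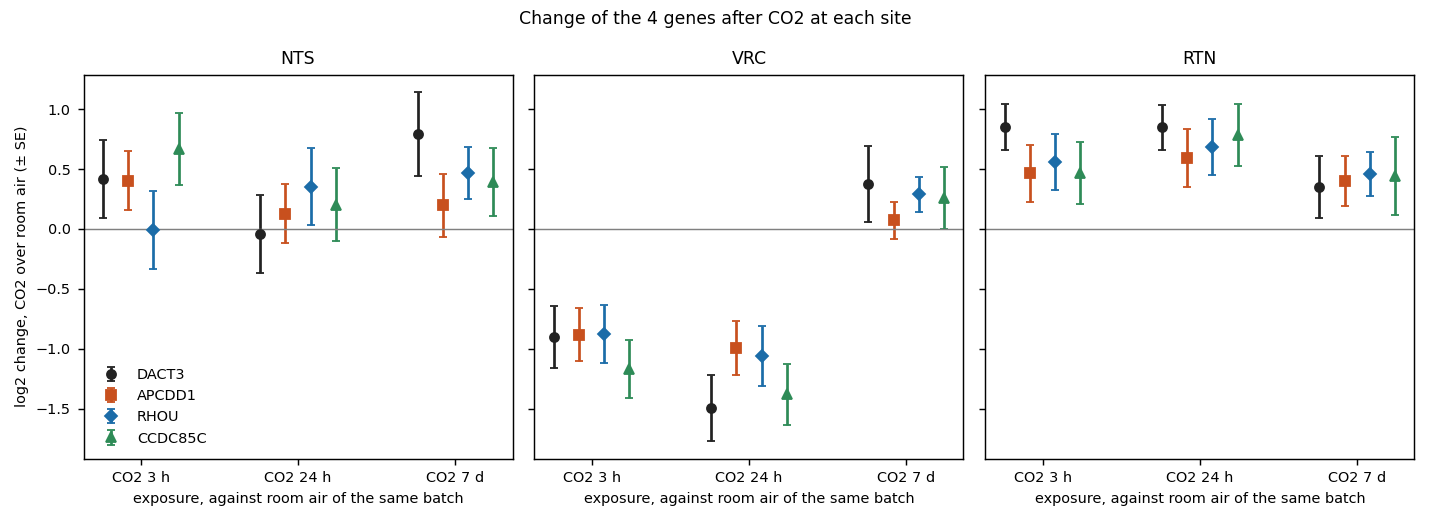
Log2 change ± SE of DACT3, APCDD1, RHOU and CCDC85C after 3 h, 24 h and 7 d of CO2 over room air of the same batch, for NTS, VRC and RTN. The values lie at -0.88 to -1.49 in the VRC at 3 h and 24 h and above 0 in the RTN at all 3 times, and the VRC values at 3 h and 24 h are those, or share the controls of those, that chose the genes.

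In the NTS the 4 genes had no common course. At 3 h of CO2 DACT3 had 10.5 to 66.0 CPM (median 26.6), against 15.5 to 26.4 CPM (median 23.9) in room air, and the mean of 29.5 ± 19.1 CPM against 22.2 ± 4.5 CPM was carried by number 2, at 66.0 CPM with the next at 27.5 CPM. This library was also the highest of its group for APCDD1 with 85.0 CPM, for RHOU with 33.4 CPM and for CCDC85C with 16.02 CPM. Group means at 3 h were 43.4 ± 22.7 CPM for APCDD1, 13.8 ± 10.1 CPM for RHOU and 7.50 ± 4.40 CPM for CCDC85C, against 33.1 ± 7.2, 14.0 ± 2.6 and 4.78 ± 1.65 CPM in room air. The log2 changes were 0.41 ± 0.32 for DACT3, 0.40 ± 0.25 for APCDD1, -0.01 ± 0.33 for RHOU and 0.67 ± 0.30 for CCDC85C. Without number 2 they were -0.01, 0.09, -0.51 and 0.26. The lowest RHOU values of the site, 5.10 and 7.52 CPM, were in numbers 5 and 6 of this group, which are among the 5 libraries that stood apart, and without those 5 the RHOU change was 0.32 ± 0.31 and the CCDC85C change 0.97 ± 0.38. No gene of the 4 passed edgeR's test at 3 h (adjusted p = 0.719 to 0.996), nor did any gene at all (0%, with 1053 at an unadjusted p under 0.05 and 12 called by DESeq2).

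After 24 h of CO2 in the NTS the means were 21.5 ± 7.8 CPM for DACT3, 35.9 ± 6.9 CPM for APCDD1, 17.8 ± 5.3 CPM for RHOU and 5.48 ± 0.95 CPM for CCDC85C, against 22.2 ± 4.5, 33.1 ± 7.2, 14.0 ± 2.6 and 4.78 ± 1.65 CPM in room air. RHOU was the one with 3 of 6 CO2 libraries above all room air, up to 26.3 CPM against at most 17.2 CPM. The log2 changes were -0.04 ± 0.33, 0.13 ± 0.25, 0.35 ± 0.32 and 0.20 ± 0.31 in that order, with edgeR adjusted p-values of 0.722 to 0.976 and 0% of genes called, although 1591 genes had an unadjusted p under 0.05, DESeq2 called 191 and limma voom with quality weights 273. For 24 h minus 3 h of CO2 the log2 differences were -0.45 ± 0.33 for DACT3, -0.27 ± 0.25 for APCDD1, 0.36 ± 0.33 for RHOU and -0.46 ± 0.30 for CCDC85C (edgeR adjusted p = 0.532 to 0.652, 0% of genes called, 1776 at an unadjusted p under 0.05, 15 called by DESeq2). Without number 2 of the 3 h libraries they were -0.03, 0.03, 0.87 and -0.06. That library thus carries the differences of DACT3, APCDD1 and CCDC85C, while the RHOU difference was larger without it.

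At 7 d in the NTS all 4 means were higher after CO2. DACT3 had 15.8 to 44.3 CPM (median 27.6) after CO2, against 7.59 to 28.1 CPM (median 17.1) in room air, where 3 libraries had 24.2 to 28.1 CPM and 3 had 7.59 to 10.1 CPM. Means were 29.9 ± 11.3 CPM after CO2 and 17.2 ± 9.3 CPM in room air for DACT3, and 50.1 ± 16.3 CPM after CO2 and 43.7 ± 18.6 CPM in room air for APCDD1 (SD, n = 6 each). RHOU averaged 20.7 ± 6.0 CPM after CO2 and 14.9 ± 4.3 CPM in room air, and CCDC85C 5.38 ± 1.69 CPM after CO2 and 4.07 ± 1.54 CPM in room air. The log2 changes were 0.79 ± 0.35 for DACT3, 0.20 ± 0.26 for APCDD1, 0.47 ± 0.21 for RHOU and 0.39 ± 0.28 for CCDC85C. By edgeR none of them passed (adjusted p = 0.618 to 0.849), and 1 gene in 15311 did, 0.00653%. For APCDD1 number 2 of room air had 76.3 CPM, and without it the APCDD1 change was 0.43 ± 0.23 with an adjusted p of 0.651. The 7 d change exceeded the 24 h change by 0.85 ± 0.50 for DACT3 and by 0.09 to 0.21 for the other 3 (edgeR adjusted p = 0.463 to 0.944), in a contrast that called 0.449% of genes.

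Between the sites, in room air of the first batch, all 4 genes had their highest level in the VRC. This is given as a description, since it rests on the libraries that chose the genes. All 6 VRC libraries were above all 6 NTS libraries for DACT3, APCDD1 and RHOU, as for 2.51% of all genes, and above all 6 RTN libraries for the same 3, as for 2.21% of all genes. For CCDC85C, 5 VRC libraries exceeded all of the NTS and 4 all of the RTN. The log2 differences were 1.09 to 1.29 over the NTS and 0.98 to 1.38 over the RTN. In room air of the second batch the VRC was not higher: its means of 19.5, 40.6, 13.5 and 4.21 CPM for DACT3, APCDD1, RHOU and CCDC85C compare with 17.2, 43.7, 14.9 and 4.07 CPM in the NTS and 24.2, 40.6, 12.7 and 6.07 CPM in the RTN. The VRC differed from the NTS there by -0.14 to 0.18 on the log2 scale (edgeR adjusted p = 0.714 to 0.926, where 12.9% of genes were called) and from the RTN by -0.52 to 0.09 (adjusted p = 0.36 to 0.995, where 6.77% were called).

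Between the NTS and the RTN in room air no difference of the 4 passed the test. In the first batch the NTS minus RTN differences were 0.27 ± 0.29 for DACT3, -0.08 ± 0.25 for APCDD1, 0.09 ± 0.30 for RHOU and -0.22 ± 0.30 for CCDC85C on the log2 scale, with edgeR adjusted p-values of 0.739 to 0.931 in a comparison that called 4.63% of genes. In the second they were -0.49 ± 0.35, 0.10 ± 0.23, 0.23 ± 0.20 and -0.58 ± 0.32, with adjusted p-values of 0.244 to 0.832 where 12.2% of genes were called. Each goat gave all 3 sites, but the fits between sites, those of the VRC included, did not pair its libraries. With the replicate number as a block, NTS minus RTN called 1423 genes in the first batch and 3712 in the second, against 757 and 1951. None of the 4 was among them.

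The change after CO2 was set against that of another site directly. As a description, the change in the VRC minus that in the RTN was -1.77 to -1.36 on the log2 scale at 3 h and -2.36 to -1.59 at 24 h, and the change in the VRC minus that in the NTS was -1.85 to -0.88 at 3 h and -1.58 to -1.12 at 24 h. At 24 h the gap to the RTN was widest for DACT3, -2.36 ± 0.41, and next for CCDC85C, -2.17 ± 0.41. The contrasts that use no VRC library of the first batch could be tested, and no gene of the 4 passed edgeR's test in any of them. NTS minus RTN gave -0.57 to 0.20 at 3 h, -0.90 to -0.34 at 24 h and -0.21 to 0.44 at 7 d, with adjusted p-values of 0.938 to 1. VRC minus NTS at 7 d gave -0.41 to -0.13 and VRC minus RTN -0.34 to 0.02, with adjusted p-values of 0.834 to 0.999. In these 5 contrasts 0% of genes were called. The counts at an unadjusted p under 0.05 were 530, 592 and 858 genes for NTS minus RTN at 3 h, 24 h and 7 d, and 1255 for VRC minus NTS and 305 for VRC minus RTN at 7 d. DESeq2 called 1, 1, 3, 3 and 0 genes in them, in the order of that sentence.

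Over the 20 comparisons open to a test, 80 values in all, 0 passed an adjusted p of 0.05 by edgeR, 11 had an unadjusted p under 0.05 and the lowest adjusted p was 0.244. Of all genes, 499 of 15326 (RTN at 7 d) to 1591 of 15605 (NTS at 24 h) had an unadjusted p under 0.05 for CO2 against room air. Between sites in room air it was 2648 of 16339 (NTS minus RTN, first batch) to 4207 of 16050 (VRC minus NTS, second batch). DESeq2 called 2 of the 80, DACT3 in the RTN at 3 h and at 24 h, and limma voom called 0. Among the 28 of these values that set CO2 against room air, 26 were above 0, the exceptions being RHOU at 3 h and DACT3 at 24 h in the NTS. They are not 26 separate observations, since the 4 genes move together from library to library, and the 3 h and 24 h values of a site share their controls. In the tested comparisons of CO2 with room air, 47.5% (NTS at 7 d) to 53.3% (NTS at 3 h) of all genes were higher after CO2.

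Ranked over the 15 groups, VRC room air of 24 h had the highest mean of each of the 4 genes, as it has for 8.8% of all genes. For RHOU it was 1.6 times the next group, the RTN after 24 h of CO2 at 21.3 CPM, and for DACT3 1.42 times the RTN after 3 h at 33.6 CPM. APCDD1 in VRC room air was 1.42 times the RTN after 7 d of CO2 at 53.6 CPM, and CCDC85C only 1.14 times the RTN after 24 h at 9.49 CPM. The other 14 means ran without a break down to 16.4 CPM for DACT3 (VRC after 24 h of CO2), 33.1 CPM for APCDD1 (NTS in 24 h of room air), 12.7 CPM for RHOU (RTN in 7 d of room air) and 4.07 CPM for CCDC85C (NTS in 7 d of room air). Of the 14 neighbouring pairs in each ranking, the gap was larger than the larger SD of the pair in 1 pair, the topmost, for DACT3, APCDD1 and RHOU, and in 0 pairs for CCDC85C. Single libraries ran over a range of 8.71-fold for DACT3, 4.88-fold for APCDD1, 7.84-fold for RHOU and 10.2-fold for CCDC85C.

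**Figure D3:**
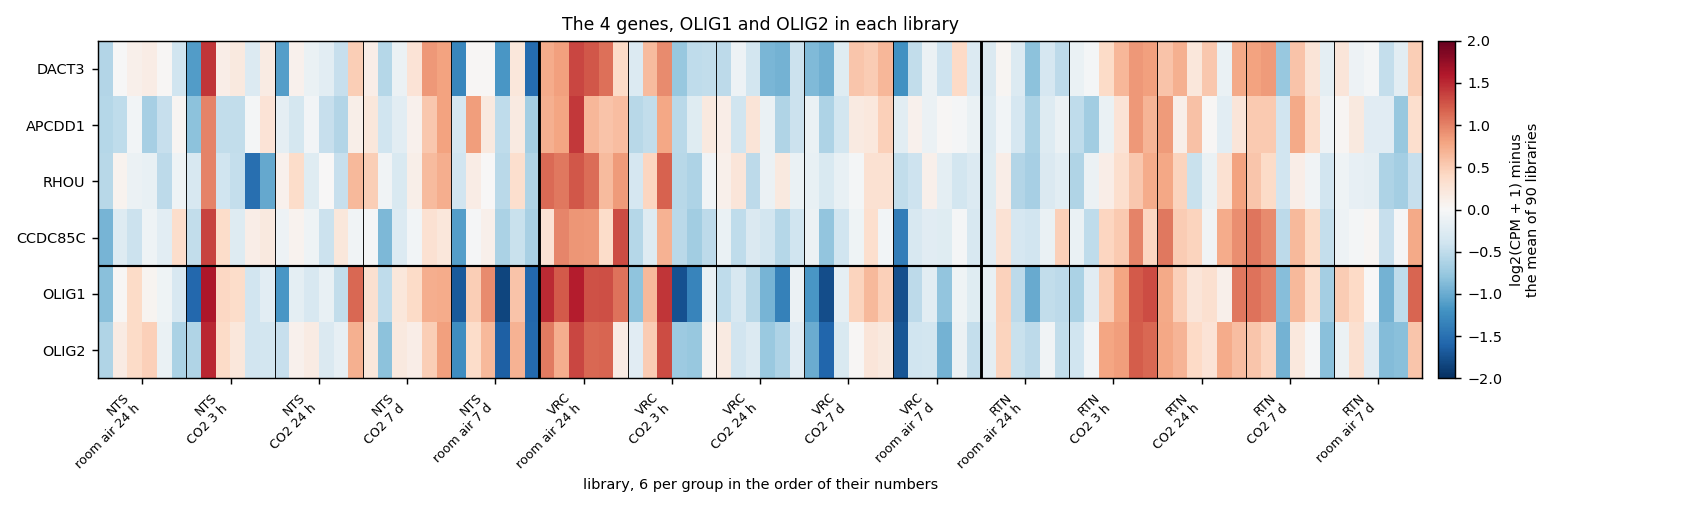
Log2(CPM + 1) of each gene minus its mean over 90 libraries (colour, red high and blue low), for the 4 genes above the line and OLIG1 and OLIG2 below it, in the 6 libraries of each group. Columns tend to have 1 colour throughout: number 2 of the NTS after 3 h of CO2 is high in all 6 rows, with 66.0 CPM of DACT3.

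The 4 genes varied together across libraries, beyond their group means. Over 90 libraries the Pearson correlation of log2(CPM + 1) for the 6 pairs of genes was 0.61 (RHOU with CCDC85C) to 0.76 (DACT3 with CCDC85C), and the correlation of residuals from the 15 group means 0.57 to 0.69. It was 0.64 to 0.77 within the first batch and 0.55 to 0.82 within the second. These are descriptions across libraries that share goats, sites and batches. Many other genes lay closer to each of the 4. By correlation with DACT3, CCDC85C ranked 98th of 16630 genes, APCDD1 128th and RHOU 169th. By correlation with APCDD1, CCDC85C ranked 26th and RHOU 52nd, and by correlation with RHOU, CCDC85C ranked 90th. The correlation with library measures was weaker: the mean of the 4 centred log2 values correlated at -0.04 with the log2 total, -0.16 with the number of genes detected, -0.08 with the TMM factor and 0.02 with the share of the 100 highest genes. Within batches these were 0.08, -0.12, -0.29 and 0.18 in the first and -0.22, -0.09, 0.17 and -0.13 in the second, in the order of that sentence.

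The linked genes most like each of them in pattern were all listed beside them as lower. Genes without a linked symbol could not be named, and some lay closer: ANKRD9, next after OLIG1 for DACT3 among linked genes, ranked 3rd among all. By the highest correlation over 90 libraries among the linked genes, DACT3 was nearest to OLIG1, a transcription factor of the oligodendrocyte lineage (r = 0.94, the highest of 16630 genes), then to ANKRD9, SAPCD2, TRIM28 and CDK2AP1 (r = 0.90 to 0.89). APCDD1 was nearest to LEMD2, CTBP1, EXOSC6, GNA12 and INTS15 (0.80 to 0.76), RHOU to PPM1D, DENND5A, LEMD2, GNA12 and EIF4E3 (0.85 to 0.76), and CCDC85C to PHLDA3, HTRA1, EGLN1 and RFNG (0.87 to 0.82). LEMD2, an inner nuclear membrane protein, and GNA12, a G protein subunit, were near to both APCDD1 and RHOU. Residuals from the group means correlated at 0.69 to 0.92 for these pairs. All the genes named here are listed as lower in the authors' deposited table of the VRC at 24 h, so the common group difference is built into their choice.

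OLIG1 and its partner OLIG2, which specify and mature the oligodendrocyte lineage, moved with all 4 genes. OLIG1 correlated at 0.94 with DACT3, 0.78 with CCDC85C, 0.75 with APCDD1 and 0.72 with RHOU, and its residuals at 0.92, 0.71, 0.70 and 0.70. OLIG2 correlated at 0.88, 0.75, 0.68 and 0.72 with the same genes. After 24 h of CO2 in the VRC, OLIG1 averaged 26.1 ± 7.8 CPM, against 100.4 ± 12.7 CPM in room air, and OLIG2 8.51 ± 2.25 CPM, against 22.2 ± 5.9 CPM (SD, n = 6 each). Their log2 changes were -1.91 ± 0.43 and -1.32 ± 0.32 there, and in the RTN 0.97 ± 0.31 and 0.95 ± 0.25 at 3 h and 0.85 ± 0.32 and 0.84 ± 0.25 at 24 h (edgeR adjusted p = 0.346 to 0.671 in the RTN at these times). In the RTN at 7 d they were 0.18 ± 0.41 and 0.13 ± 0.33, against 0.35 to 0.46 for the 4 genes. In the VRC they were -1.23 and -0.76 at 3 h and 0.51 and 0.35 at 7 d. In the NTS they were 0.45 and 0.34 at 3 h, where RHOU had -0.01, 0.09 and 0.07 at 24 h, and 0.44 and 0.38 at 7 d. The sum of OLIG1 and OLIG2, the 2 of 9 oligodendrocyte markers with a linked symbol, was 21.4 to 45.4 CPM in the VRC after 24 h of CO2, 17.2 to 136 CPM after 3 h and 96.5 to 147 CPM in room air. In the RTN it was 60.9 to 100.2 CPM after 24 h of CO2, 33.0 to 124 CPM after 3 h and 26.2 to 69.4 CPM in room air. The library highest for all 4 genes in the NTS at 3 h, number 2, had 123 CPM of OLIG1, and number 3 of the VRC at 3 h had 107 CPM. Myelin genes were not among the linked symbols, so the part of oligodendrocyte content in the levels of the 4 genes was not tested.

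**Figure D4:**
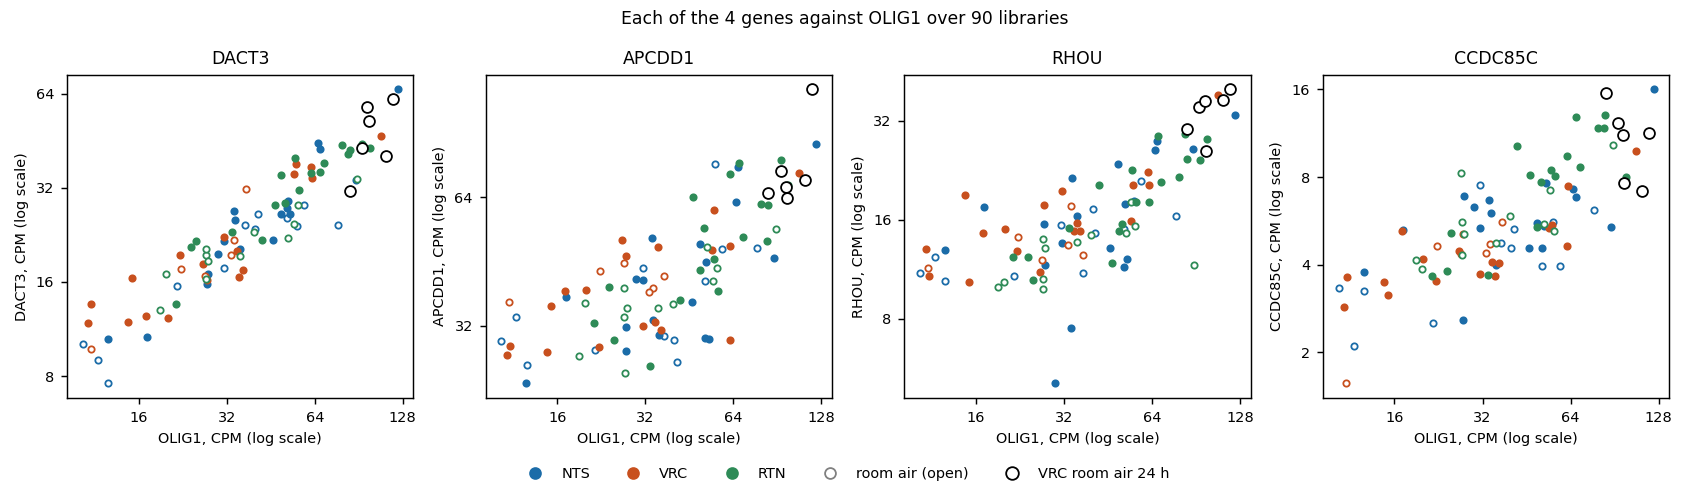
CPM of DACT3, APCDD1, RHOU and CCDC85C against CPM of OLIG1 in 90 libraries, both on log2-spaced axes, coloured by site, open for room air, with the 6 VRC libraries of 24 h of room air ringed in black. DACT3 follows OLIG1 most closely (r = 0.94). The ringed libraries lie toward the upper end of the OLIG1 axis, from 84.3 to 119 CPM. On the other axis their range overlaps that of other libraries, most for CCDC85C, where they have 7.16 to 15.5 CPM.

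The linked markers of other cell types correlated less with the 4 genes. Against the mean of the 4 centred log2 values, the summed level correlated at -0.06 for microglia (3 of 8 markers linked), -0.01 for endothelium (6 of 10), 0.07 for TTR of the choroid plexus (1 of 4), 0.08 for neurons (5 of 8) and -0.21 for blood (2 of 4), compared with 0.92 for OLIG1 and OLIG2. For residuals from the group means it was 0.90 for OLIG1 and OLIG2 and -0.14 (blood) to 0.07 (TTR) for the others. OLIG1 and OLIG2 are both listed in the table that chose the 4 genes. So are TTR, 1 endothelial and 1 microglial marker, but no neuronal or blood marker, so this contrast is partly built into the choice. No marker of oligodendrocyte precursors, astrocytes or pericytes was linked. Every linked marker, the 6 endothelial ones included, has its symbol from the authors' tables of CO2 comparisons. A shift of these markers after CO2 is thus partly built into their choice, and may not hold for the unlinked markers of a cell type. TTR, the thyroid hormone carrier made by the choroid plexus, had 1.39 to 163 CPM (median 11.8) in the VRC after 24 h of CO2, against 0.485 to 2.59 CPM (median 1.99) in room air. The authors' table of the VRC at 24 h lists TTR, so this difference is built into its choice. Its level also varied widely within other groups, with 0.957 to 1905 CPM (median 2.56) in the RTN after 3 h of CO2. Endothelial markers in the VRC summed to 42.0 to 148 CPM after 24 h of CO2, 66.2 to 99.5 CPM after 3 h and 32.8 to 59.9 CPM in room air. After 3 h of CO2 they also lay above all of room air at the other sites, at 57.6 to 91.6 CPM against 40.3 to 54.9 CPM in the RTN and at 58.5 to 101.4 CPM against 30.1 to 47.0 CPM in the NTS. After 24 h of CO2 they were at 32.4 to 110.2 CPM in the RTN and 34.5 to 158 CPM in the NTS, overlapping the same room air. The part of either in the levels of the 4 genes was not tested.

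A list of 140 Wnt signalling genes was chosen with earlier results of these data known, and it includes all 4 genes, CCDC85C among them. It runs from ligands and Frizzled receptors to Dishevelled, beta-catenin, TCF factors and small GTPases. Only these 4 genes of the list had a linked symbol. Linked genes outside the list were not searched for a role in the pathway, so they may include others. The other 136 are not analysed here, and how many of them were among the genes tested is unknown, so no count of the pathway's genes that rose or fell can be given. The 4 include 2 inhibitors, 1 GTPase induced by Wnt and 1 junction protein, and no ligand, receptor or transcription factor.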

How the data were processed

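Counts per Ensembl goat gene from 90 bulk RNA libraries were used as deposited. Per the labels' protocols, RNA came from the RNeasy Lipid Tissue Kit, cDNA from the SMART-Seq v4 kit and libraries from Nextera XT, with paired reads of 100 bp. The submitters' processing notes name edgeR 4.6, featureCounts 2.0.6, STAR 2.7.10b and fastp 0.24.0. Build and annotation: not given in the sources used here. Raw counts without normalization were deposited by the authors, and tables of CO2 comparisons with log2 fold changes and log2 mean abundance, a likelihood ratio score, and p-values with FDR, per the file headers.

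Symbols come from those tables. A likelihood ratio fit over 90 libraries and 15 groups (filterByExpr minimum count of 5) was matched to them by mean abundance within 1e-06, and 341 of 342 entries matched exactly 1 gene. Of 93 entries given as identifiers, 92 matched their own. This linked 238 symbols. The 4 genes, the Wnt and marker lists and the comparisons were chosen with earlier results of these data known. The genes named are the 4, linked genes of the Wnt list of 140, and the 5 linked genes most correlated with each, of which 1 is not reported here; OLIG1, OLIG2, TTR and other markers are on the marker lists.

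Tests used edgeR 4.0.16 in R 4.3.3: TMM factors, filterByExpr on the groups (minimum count 10), glmQLFit (legacy=FALSE, robust=TRUE), the quasi-likelihood F test and Benjamini-Hochberg adjustment over all genes of a comparison, threshold 0.05. Fits within a site used its 18 libraries of the first batch or 12 of the second; fits between sites used all libraries of the batch, and the contrast of 7 d with 24 h all 30 of the site. Of 30 comparisons, 20 use no library of the VRC after 24 h of CO2 or in 24 h of room air, and the 4 genes were tested only there. The NTS and RTN libraries still come from the same groups of goats. CPM use TMM factors over all libraries. Replicates are goats of outbred stock. The code of the test step was run on simulated counts. These had the same spread setting for every gene, no outlying library and planted changes larger than any tested change of the 4 genes. They do not show how well the test finds smaller changes in these libraries. Alternatives were DESeq2 1.42.0, limma 3.58.1 voom with quality weights, RLE factors, 2 other filters, other libraries in the fit, the replicate number as a block, and each library left out in turn. No sequence or coordinate is printed, since none could be tied to these genes.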

Additional observations from a re-analysis of the deposited data

Results flagged for a closer look

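Of 60 sets of 6 libraries (4 genes in 15 groups), 7 had a highest or lowest library set far apart from the others. If sets were independent and values normal, chance alone would flag about 1 set in 20, or 3 sets. Here the 4 genes move together from library to library, so 3 is only a rough guide. Number 2 of the NTS after 3 h of CO2 stood high for DACT3 (66.0 CPM, the next 27.5), RHOU (33.4 CPM, the next 12.9) and CCDC85C (16.02 CPM, the next 7.61). Number 3 of the VRC after 3 h stood high for CCDC85C (9.82 CPM, the next 4.62), and number 3 of the VRC in 24 h of room air for APCDD1 (114 CPM, the next 73.6). CCDC85C was also high in number 6 of the RTN in 7 d of room air (10.3 CPM, the next 5.89) and low in number 1 of the VRC in 7 d of room air (1.57 CPM, the next 4.36). No difference between sites or times that could be tested passed an adjusted p of 0.05.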

How the results depend on the processing

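Across 1576 values of the 4 genes under other settings, 32 changed sign and 2 crossed the threshold. Of the sign changes, 28 were of tested values and 4 of values given as a description, all 4 at 24 h minus 3 h in the VRC: APCDD1 (0.14), RHOU (0.17) and CCDC85C (0.16) without number 3 of the 3 h group, and APCDD1 (0.002) with voom. Some described values moved by more than their SE. Without number 3 of the 3 h group, the change in the VRC at 3 h went from -0.88 ± 0.24 to -1.23 for RHOU. For CCDC85C it went from -1.17 ± 0.24 to -1.54, for DACT3 from -0.90 ± 0.26 to -1.18 and for APCDD1 from -0.88 ± 0.22 to -1.13. With DESeq2, 1 gene of the 4, DACT3, passed in the RTN at 3 h and 1, DACT3 again, at 24 h; the other settings called 0 of them wherever they were run. Leaving out the 5 NTS libraries applies to comparisons that use NTS libraries of the first batch (28 values tested), and each library was left out in turn only for CO2 against room air and 24 h against 3 h (432 values tested). With the replicate block none was called in any comparison (0 of 80 values, lowest adjusted p 0.16). The replicate number does not pair goats of different exposures: residuals of the same number at the same site correlated over 0.1 in 30 of 72 pairs (median 0.0798), and at other sites of the same exposure in 84 of 90 (median 0.362). The block moved counts of all genes, for example to 3777 from 2068 for VRC against NTS in 7 d of room air, and changed no call of the 4.

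No value that changed sign had passed the threshold, and the cause was not tested. Without the 5 NTS libraries that stood apart, RHOU in the NTS at 3 h was 0.32 and the 7 d against 24 h contrast of APCDD1 there -0.085. For APCDD1 in VRC minus RTN room air of 7 d, RLE factors gave -0.0092, the 1 CPM filter -0.0041 and DESeq2 -0.0129; DESeq2 gave 0.0012 for DACT3 between 24 h and 3 h in the RTN, voom -0.0472 for RHOU there, and the replicate block -0.0048 for RHOU in the NTS minus RTN effect at 7 d. Leaving out 1 library in turn, the log2 value in the NTS ran from -0.0059 to 0.59 for DACT3 and -0.51 to 0.15 for RHOU at 3 h, from -0.2352 to 0.0958 for DACT3 at 24 h and from -0.3992 to 0.0349 for APCDD1 at 24 h minus 3 h. It ran from -0.0537 to 0.17 for APCDD1 in the VRC at 7 d, and at 24 h minus 3 h in the RTN from -0.1008 to 0.0935 for DACT3 and -0.0083 to 0.31 for APCDD1.

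Counts of all genes past 0.05 depended more on the tool. DESeq2 called 274 in the VRC at 24 h (edgeR 126, and 263 with the compared groups alone), 75 in the NTS at 7 d (edgeR 1) and 302 in the NTS contrast of 7 d with 24 h (edgeR 72, voom 515, no filter 45). CCDC85C, with as few as 23 counts, has the most counting error, but its log2 changes did not always have the largest SE. At 7 d its SE was the largest of the 4 in the RTN (0.33) but not in the NTS (0.28, against 0.35 for DACT3).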
